A study of Mus musculus with 12 samples.

Results

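Iron handling was followed through 10 genes, chosen by symbol as genes of iron uptake, reduction, storage and release: Tfrc, Slc11a2, Steap3, Steap4, Slc11a1, Slc40a1, Fth1, Ftl1, Ncoa4 and Hmox1. All 10 were found among 51826 gene identifiers in forelimb and 55401 in cell cultures, and all 10 passed the filter on low counts in both (19987 and 14030 genes tested). RNA sequencing of mouse tissue and cells had given 12 libraries, 2 in each of 6 groups, to study the loss of Impdh2, which encodes an enzyme of guanine nucleotide synthesis. Forelimbs came from E12.5 embryos that were wild type (WT) or Impdh2 Prx-cKO, in which a limb mesenchymal progenitor Cre deletes the gene, so that other cells of the limb keep it. Cultures were grown from the bone marrow of WT mice or of Impdh2 LysM-cKO mice, deleted in the myeloid lineage, at an age the labels do not give. All 8 cultures had 3 days of L929 supernatant, a source of the macrophage growth factor M-CSF (equivalent to 20 ng/ml), before reseeding. Their protocol then names RANKL, the cytokine that drives osteoclast formation, at 40 ng/ml. The titles call 4 cultures R40D3 and 4 R0D3 without spelling this out, and all 8 carry 1 treatment label, so these names are used here as given. Nothing says that the replicates of a group came from separate animals or cultures, so p-values measure the spread between libraries, which may be technical.

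Most cells take up iron bound to transferrin through the transferrin receptor, encoded by Tfrc. In the endosome a reductase of the Steap family turns ferric into ferrous iron, and the transporter encoded by Slc11a2 carries it into the cytosol. Iron that is not used is stored in ferritin, a shell built of heavy (Fth1) and light (Ftl1) chains, which Ncoa4 delivers to lysosomes for breakdown. Ferroportin, encoded by Slc40a1, is the iron exporter. Macrophages also recover iron from haem through Hmox1, haem oxygenase, and move it out of phagosomes through Slc11a1, while osteoclasts are known for a high demand for iron in their mitochondria.

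The genes lie as follows in GRCm38, each position being the whole gene in GENCODE M21. Uptake and reduction are represented by Tfrc (ENSMUSG00000022797, chr16:32608920-32632794), Slc11a2 (ENSMUSG00000023030, chr15:100387898-100425072), Steap3 (ENSMUSG00000026389, chr1:120190757-120272705) and Steap4 (ENSMUSG00000012428, chr5:7960457-7982213). The phagosome transporter and the exporter are Slc11a1 (ENSMUSG00000026177, chr1:74375195-74386062) and Slc40a1 (ENSMUSG00000025993, chr1:45908068-45926523). Storage and its turnover are represented by Fth1 (ENSMUSG00000024661, chr19:9980598-9985098), Ftl1 (ENSMUSG00000050708, chr7:45457944-45459884) and Ncoa4 (ENSMUSG00000056234, chr14:32159865-32179855), and haem breakdown by Hmox1 (ENSMUSG00000005413, chr8:75093621-75100589).

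Several of these messenger RNAs carry an iron-responsive element, a hairpin bound by iron regulatory proteins when iron is scarce. In a 5′ untranslated region (UTR) it holds back translation, and in the 3′ UTR of Tfrc it protects the RNA from decay. The hairpins are shown because they divide the 10 genes into those with a 3′ element (import), those with a 5′ element (storage and export) and those with none. A search of annotated mouse transcripts (GENCODE M21, GRCm38) looked for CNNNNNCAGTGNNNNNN, on the sense strand, with 5 base pairs on either side of the loop. Each hit is printed 5′ to 3′ on the strand of its gene, with the 6 loop bases in capitals.
Tfrc 3′ UTR, chr16:32631219-32631247, plus strand: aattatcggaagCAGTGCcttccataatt
Tfrc 3′ UTR, chr16:32631598-32631626, plus strand: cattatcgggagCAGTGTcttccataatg
Tfrc 3′ UTR, chr16:32631663-32631691, plus strand: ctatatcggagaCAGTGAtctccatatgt
Tfrc 3′ UTR, chr16:32631710-32631738, plus strand: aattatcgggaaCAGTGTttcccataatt
Slc11a2 3′ UTR, chr15:100395152-100395180, minus strand: gccatcagagcCAGTGTgtttctatggtt
Slc40a1 5′ UTR, chr1:45925465-45925493, minus strand: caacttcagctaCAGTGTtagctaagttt
Fth1 5′ UTR, chr19:9982732-9982760, plus strand: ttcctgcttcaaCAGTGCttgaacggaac
Ftl1 5′ UTR, chr7:45459779-45459807, minus strand: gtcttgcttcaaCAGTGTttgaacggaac

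The Slc11a2 hairpin was found only when 1 extra unpaired base was allowed on the 3′ side of the stem, and it lies in 1 of 3 annotated transcripts with a 3′ UTR. The Slc40a1 hairpin lies in 1 of 4 transcripts with a 5′ UTR and that of Fth1 in 4 of 5. With no extra base, the motif was present in the 5′ UTR of 0.11% of 20899 coding genes and in the 3′ UTR of 0.476% of 21028. With 1 extra base these shares were 0.167% and 0.77%. Steap3, Steap4, Slc11a1, Hmox1 and Ncoa4 had no match in these windows.

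Library totals ran from 28892215 to 69466572 counts in forelimb and from 16009146 to 19221865 in culture. Impdh2 itself was at 260 and 272 CPM (counts scaled to library size) in WT forelimbs against 170 and 199 for Prx-cKO, 69.3% of the WT mean (edgeR quasi-likelihood, adjusted p = 0.443). WT R40D3 cultures gave 25.7 and 27.7 CPM against 7.72 and 8.38 for LysM-cKO (adjusted p = 0.0386). WT R0D3 cultures gave 22.3 and 28.2 CPM against 7.36 and 7.03 for LysM-cKO (adjusted p = 0.0324). Both culture calls were lost when only the 4 libraries compared were fitted. The labelled cell types were checked with marker lists. The 10 osteoclast markers summed to 13189 to 38759 CPM in the 4 R40D3 cultures and to 325 to 471 CPM in the 4 R0D3 cultures. The 10 macrophage markers summed to 10378 to 13761 CPM over all 8. Erythroid markers, which matter for iron genes, summed to at most 4.66 CPM in culture, with 6 to 11 of 13 at 0 counts. In forelimb they summed to 3851 to 5238 CPM, and limb mesenchyme markers to 1214 to 2024 CPM.

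**Figure D1:**
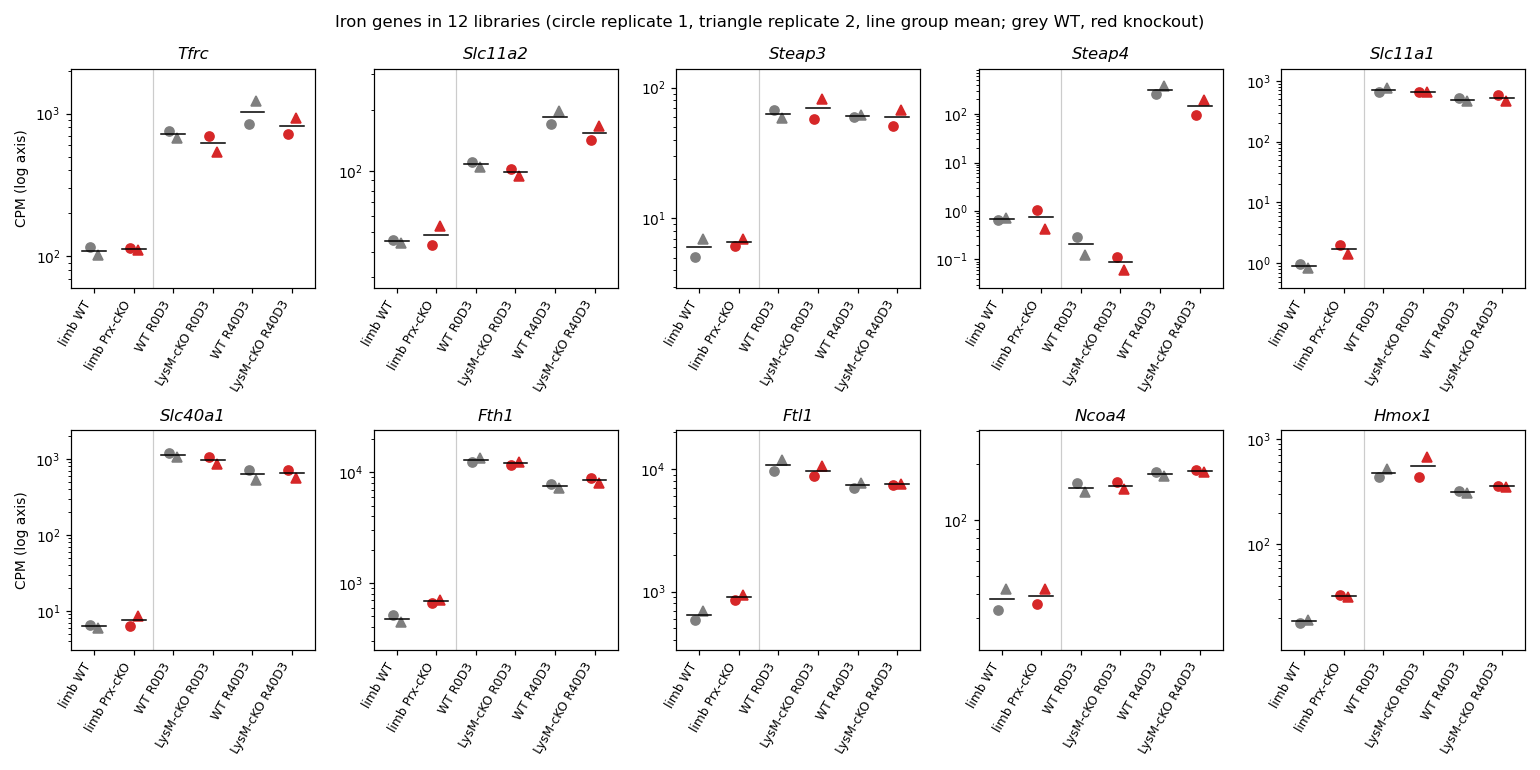
Level of each gene in CPM on a log axis, with circles for replicate 1, triangles for replicate 2, lines for group means, grey for WT and red for knockout libraries. Steap4 spans the widest range, from under 1 CPM in every R0D3 culture to between 94.7 and 374 CPM at R40D3, and forelimb and culture values were normalised separately.

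Per kilobase of exon, ferritin stood far above the other 8 genes in every group. In WT R0D3 cultures the mean level was 7991 CPM per kb for Ftl1 and 3729 for Fth1. They ranked 2 and 7 among 55141 genes with a length. The length joins all annotated exons of a gene, 1340 bases for Ftl1 and 3469 for Fth1, so the order depends on the annotation. In CPM, without the length, Fth1 was the higher chain there, at a mean of 12935 against 10708 for Ftl1. Hmox1 followed at 274 CPM per kb, then Slc11a1 at 191, Slc40a1 at 126 and Tfrc at 116. The replicates of Slc40a1 and Tfrc overlapped. Lower still were Slc11a2 at 17.0, Ncoa4 at 15.9 and Steap3 at 11.03 CPM per kb, the first 2 of which overlapped. Steap4 was last, at 0.0659.

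In WT R40D3 cultures the order was Ftl1 (5501 CPM per kb), Fth1 (2189), Hmox1 (180), Tfrc (167), Slc11a1 (133), Steap4 (101), Slc40a1 (69.9), Slc11a2 (29.1), Ncoa4 (18.9) and Steap3 (10.6). Tfrc overlapped both of its neighbours there. Steap4 had moved from rank 16454 to rank 420 of the 55141 genes. In WT forelimb, in a separate normalisation, the leading genes were again Ftl1 (478 CPM per kb) and Fth1 (138), and Tfrc came next at 17.6. Hmox1 was at 10.6, Slc11a2 at 7.10 and Ncoa4 at 4.03 CPM per kb. Steap3, Slc40a1, Slc11a1 and Steap4 were at 1.05, 0.699, 0.247 and 0.220, and the replicates of the last 2 overlapped. Fth1 and Ftl1 together took 2.06% to 2.50% of all counts at R0D3, 1.49% to 1.68% at R40D3 and 0.113% to 0.154% in forelimb.

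The first comparison asked how the iron genes differ between R40D3 and R0D3 cultures. In WT cells Steap4 and Slc11a2 rose, while Slc40a1, Fth1 and Slc11a1 fell. In LysM-cKO cells Steap4 and Slc11a2 rose too. Thus 5 of 10 genes were called in WT, against a background of 16.9% of all genes (11.4% higher and 5.52% lower), and 2 of 10 in LysM-cKO, against 10.1% (6.99% higher and 3.15% lower). A call here is an adjusted p under 0.05 over all 14030 genes in edgeR's quasi-likelihood test. The main fit leaves out the replicate number, although same-numbered culture libraries deviated together. With the number as a block 8 of 10 genes were called in WT (background 28.3%) and 5 of 10 in LysM-cKO (background 21.3%). Groups did not overlap for 9 of 10 genes in either genotype, the exception being Steap3, against 62% of all genes in WT and 49.8% in LysM-cKO. The members' median log2 fold change was −0.29 in WT and −0.27 in LysM-cKO, beside 0.0098 and 0.0094 over all genes. In the same libraries 10 of 10 osteoclast markers were called higher in each genotype. Cell cycle markers were lower, 10 of 10 in WT (median log2 fold change −0.59, 1 called) and 10 of 10 in LysM-cKO (median −0.81, 1 called). The part of either list in the iron gene differences was not tested. In such bulk samples fewer cells of a type and less RNA per cell cannot be told apart.

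Among the genes of uptake and reduction, Steap4 differed most. Steap4 encodes a metalloreductase that reduces ferric iron and cupric copper. It had 5 and 2 counts in the WT R0D3 libraries (0.291 and 0.124 CPM) and 4985 and 6117 counts at R40D3 (261 and 374 CPM). In LysM-cKO it had 2 and 1 counts at R0D3 (0.115 and 0.0606 CPM) and 1790 and 3142 at R40D3 (94.7 and 194 CPM). The gene was close to undetected in every R0D3 library and abundant in every R40D3 library.

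The ratio of Steap4 counts, scaled for library size, was 1486 in WT (exact 95% interval 721 to 3696) and 1585 in LysM-cKO (542 to 7691). These intervals cover counting error only. The fitted log2 fold change, which depends on the prior count at such low levels, was 10.51 (SE 0.56, adjusted p = 3.84e-05) in WT and 10.55 (SE 0.62, adjusted p = 7.85e-05) in LysM-cKO. By p the gene ranked 9 of 14030 in WT and 11 in LysM-cKO. Both calls held in every alternative run. In the plot of Steap4 against osteoclast markers the 8 cultures form 2 clusters, so no correlation is given.

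**Figure D2:**
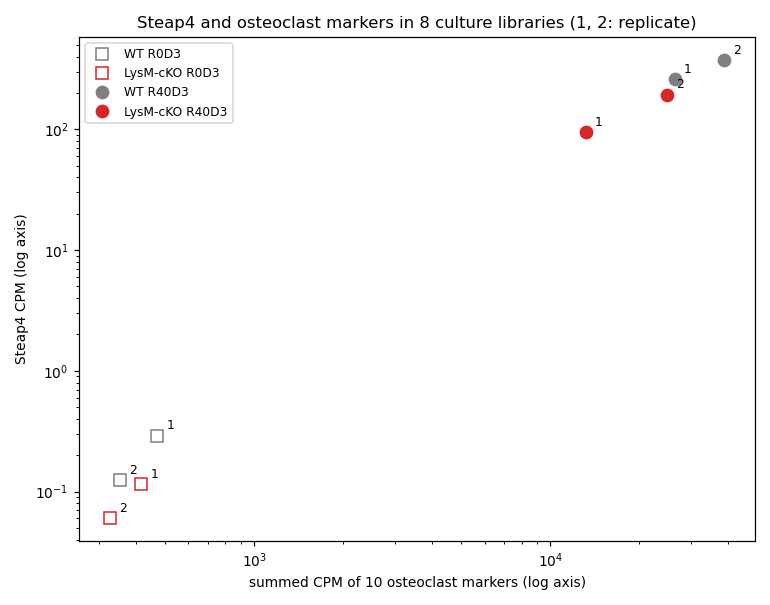
Steap4 level (CPM, log axis) against the summed level of 10 osteoclast markers (CPM, log axis) in the 8 culture libraries, with open squares for R0D3, filled circles for R40D3, grey for WT, red for LysM-cKO and the replicate number beside each point. The 4 R0D3 libraries lie at 325 to 471 CPM of markers and the 4 R40D3 libraries at 13189 to 38759 CPM, with the lowest Steap4 level of the R40D3 cultures where the markers are lowest.

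Because Steap4 differed so strongly, its promoter is shown: the 250 bases upstream of its start in RefSeq (GRCm38.p6), plus strand.
Steap4 promoter, chr5:7960222-7960471, plus strand: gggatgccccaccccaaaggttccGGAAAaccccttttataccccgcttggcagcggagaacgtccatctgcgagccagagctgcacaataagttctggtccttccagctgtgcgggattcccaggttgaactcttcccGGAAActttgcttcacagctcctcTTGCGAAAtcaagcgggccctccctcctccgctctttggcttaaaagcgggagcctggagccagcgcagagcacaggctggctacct
Capitals mark 2 copies of GGAAA, the core recognised by NFAT factors, and 1 match to TTNNGCAA, a C/EBP site, on the minus strand. The search covered both strands of windows from 250 bases before to 50 after a start, and the matches did not overlap. Of 32851 promoters in the table, 61.3% held GGAAA and 10.8% held TTNNGCAA. Of the 7 members with an entry, 4 held GGAAA and 3 held TTNNGCAA, the latter being Steap4, Steap3 and Fth1. Neither motif was thus particular to Steap4. TGANTCA, an AP-1 site, was in 7.81% of them and in 0 of the 7 members with an entry. TGACNNNGC, the core of the antioxidant response element, was in 12.4% of them and in 1 member, Ncoa4. A match is a description of the letters and not evidence of binding.

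Tfrc and Slc11a2 act in sequence in the transferrin cycle. Slc11a2 was at 111 and 105 CPM in WT R0D3 and at 171 and 198 CPM in WT R40D3 cultures. Knockout cultures held 103 and 94.1 CPM at R0D3 against 143 and 167 at R40D3. All R40D3 libraries lay above all R0D3 libraries. This gave a log2 fold change of 0.77 (SE 0.11, adjusted p = 0.00459) in WT and 0.65 (SE 0.11, adjusted p = 0.0137) in LysM-cKO. The WT call was lost without WT R40D3 replicate 2 (0.62) or WT R0D3 replicate 2 (0.73). The LysM-cKO call was lost without R0D3 replicate 1 (0.71), R40D3 replicate 2 (0.50) or R0D3 replicate 2 (0.59) of that genotype, and when its 4 libraries were fitted alone. Exons of Slc11a2 share 402 bases with Gm5475 on the opposite strand, which had at most 13 counts.

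Tfrc was at 761 and 669 CPM in WT R0D3 and at 848 and 1216 CPM in WT R40D3 cultures. The LysM-cKO values were 693 and 542 CPM at R0D3 against 718 and 931 at R40D3. Replicate 2 was the higher of its pair at R40D3 and the lower at R0D3 in either genotype. Its log2 fold change of 0.53 (SE 0.21, adjusted p = 0.145) in WT and 0.42 (SE 0.21, adjusted p = 0.293) in LysM-cKO did not pass, with or without the block. Steap3, the main ferrireductase of erythroid endosomes, was at 67.6 and 58.4 CPM in WT R0D3 and at 59.3 and 61.5 CPM in WT R40D3 cultures. LysM-cKO cultures gave 57.3 and 81.2 CPM at R0D3 against 51.1 and 67.2 at R40D3. These groups overlapped, and the log2 fold changes were −0.06 (SE 0.19, adjusted p = 0.867) and −0.23 (SE 0.19, adjusted p = 0.528). The members of the Steap family in this set thus had very different values, a log2 fold change of 10.51 for Steap4 in WT and an interval of −0.50 to 0.38 for Steap3.

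Slc11a1, a divalent metal transporter of phagosomes in macrophages, was at 658 and 755 CPM in WT R0D3 and at 526 and 459 CPM in WT R40D3 cultures. Knockout cultures held 648 and 650 CPM at R0D3 against 577 and 470 at R40D3. The R40D3 libraries were the lower ones in both genotypes, in the opposite direction to the related Slc11a2. Fitted, the log2 fold change was −0.52 (SE 0.13, adjusted p = 0.0361) in WT and −0.31 (SE 0.13, adjusted p = 0.211) in LysM-cKO. The WT call was lost without R0D3 replicate 1 (−0.62), R40D3 replicate 2 (−0.47) or R0D3 replicate 2 (−0.42). Of the 10 macrophage markers, 8 were lower in WT R40D3 cultures and 1 was called, with sums of 13435 and 13761 CPM at R0D3 and 12265 and 10898 at R40D3. The part of these differences in that of Slc11a1 was not tested.

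Slc40a1, the exporter, was at 1213 and 1047 CPM in WT R0D3 and at 726 and 533 CPM in WT R40D3 cultures. The LysM-cKO values were 1055 and 861 CPM at R0D3 against 726 and 562 at R40D3. Replicate 1 was the higher of its pair in all 4 groups. This gave a log2 fold change of −0.84 (SE 0.20, adjusted p = 0.0265) in WT, 55.7% of the R0D3 level. The call was lost without R0D3 replicate 1 (−0.73), R40D3 replicate 2 (−0.68) or R0D3 replicate 2 (−0.95). In LysM-cKO the log2 fold change was −0.57 (SE 0.20, adjusted p = 0.126), and it passed with the block (−0.58, adjusted p = 0.00192) and with DESeq2 (−0.59, adjusted p = 0.0210).

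The ferritin chains were the most abundant of the set. Fth1 was at 12434 and 13435.5 CPM in WT R0D3 and at 7935 and 7250.5 CPM in WT R40D3 cultures. LysM-cKO cultures gave 11641 and 12485 CPM at R0D3 against 8937 and 8097 at R40D3. Every R40D3 library was below every R0D3 library. Fitted, the log2 fold change was −0.77 (SE 0.21, adjusted p = 0.0449) in WT, 58.7% of the R0D3 level, and −0.50 (SE 0.21, adjusted p = 0.196) in LysM-cKO. The LysM-cKO value passed with DESeq2 (−0.52, adjusted p = 0.000100) and with no filter on low counts (−0.52, adjusted p = 0.0102 in edgeR). It did not pass with the block (−0.50, adjusted p = 0.0580 in edgeR). The WT call was close to the threshold: it was lost on leaving out any 1 of the 4 libraries (values from −0.86 to −0.71) and when these 4 were fitted alone (−0.77), and it passed with the block (adjusted p = 0.00780).

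Ftl1 was at 9592 and 11824 CPM in WT R0D3 and at 7012 and 7730 CPM in WT R40D3 cultures. Knockout cultures held 8697 and 10643 CPM at R0D3 against 7404 and 7584 at R40D3. The R40D3 libraries were again the lower ones. This gave a log2 fold change of −0.54 (SE 0.22) in WT, with an adjusted p of 0.149, and 0.0300 with the block. It also passed with DESeq2 (−0.55, adjusted p = 0.00237) and with no filter on low counts (−0.58, adjusted p = 0.0248 in edgeR). In LysM-cKO it was −0.37 (SE 0.22, adjusted p = 0.369). Ftl1 counts are uncertain, because 9 near-identical annotated genes can share its reads, among them Ftl1-ps1 with 99.56% identity over 910 bases. Another of the 9, Gm10252, is not a separate copy, as it covers 355 bases of Ftl1 exons on the opposite strand. It had up to 2078 counts in culture. Together the 9, Gm10252 included, held 5.26% to 5.86% of the family's counts in culture, and adding them left the WT value at −0.54.

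Ncoa4, the ferritin cargo receptor, was at 157 and 141 CPM in WT R0D3 and at 182 and 172 CPM in WT R40D3 cultures. The LysM-cKO values were 159 and 146 CPM at R0D3 against 185 and 182 at R40D3. The groups did not overlap, and the difference ran opposite to that of the ferritin chains. Fitted, the log2 fold change was 0.25 (SE 0.09) in WT, with an adjusted p of 0.108, and 0.0226 with the block. In LysM-cKO it was 0.26 (SE 0.09), with an adjusted p of 0.123, and 0.0231 with the block. The pseudogene Gm6768, 99.89% identical to Ncoa4 over 1878 bases, had up to 1399 counts in culture, so these counts too can be divided, and with the copy added the values were 0.26 and 0.29.

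Hmox1 was at 437 and 523 CPM in WT R0D3 and at 321 and 310 CPM in WT R40D3 cultures. LysM-cKO cultures gave 434 and 671 CPM at R0D3 against 359 and 351 at R40D3. The R0D3 libraries varied more than the R40D3 libraries and lay above all of them. This gave a log2 fold change of −0.60 (SE 0.19) in WT, with an adjusted p of 0.0741, and 0.0180 with the block. In LysM-cKO it was −0.64 (SE 0.19), with an adjusted p of 0.0855, and 0.0203 with the block. With DESeq2 it passed in WT (−0.62, adjusted p = 0.0109) and in LysM-cKO (−0.66, adjusted p = 0.00896). It also passed in edgeR in WT with those 4 libraries fitted alone (adjusted p = 0.0123) and in LysM-cKO without R0D3 replicate 1 (−0.92).

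**Figure D3:**
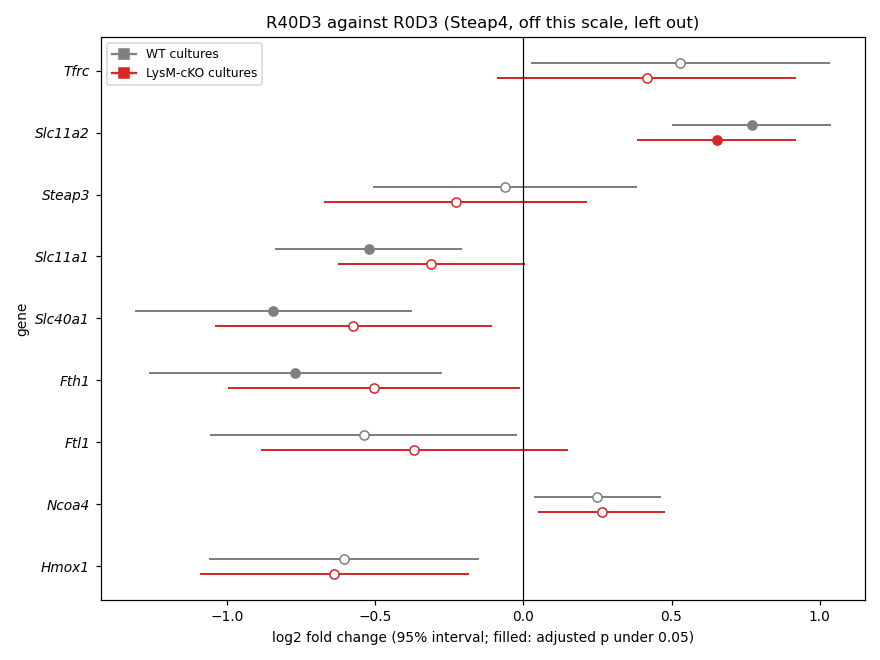
Log2 fold change of R40D3 against R0D3 for 9 genes (rows) in WT (grey) and LysM-cKO (red) cultures, with 95% intervals and filled points for an adjusted p under 0.05. Steap4, at 10.51 and 10.55, is off this scale. Slc11a2, Tfrc and Ncoa4 lie above 0 and Slc11a1, Slc40a1, Fth1, Ftl1 and Hmox1 below it in both genotypes.

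The rest of the iron pathway was described with 57 genes in 7 lists, of which 45 were tested in culture. In WT, 7 of 45 were called higher and 3 lower, beside 11.4% and 5.52% of all genes. In LysM-cKO, 3 of 45 were called higher and 1 lower, beside 6.99% and 3.15%, so that the share called was not above that of all genes. With the block the counts were 18 of 45 in WT (28.3% of all genes) and 13 of 45 in LysM-cKO (21.3%). Of the 13 genes of mitochondrial iron import and iron-sulphur cluster assembly, 12 were higher at R40D3 in WT (5 called, median log2 fold change 0.46) and 10 in LysM-cKO (3 called, median 0.31). No gene of this list was called lower. These 5 and 3 of 13 stand beside the same 11.4% and 6.99% of all genes called higher. Of 8 haem synthesis genes tested, 7 were higher in WT, and 1 of them, Alas1, was called, a share near the 11.4% of all genes. In WT the uptake and binding list had 2 of 7 called lower and haem transport and breakdown 1 of 8 lower. Sensors, chaperones and storage had 1 of 5 called higher, and reductases and oxidases 0 of 4. Of those 4, 1 was lower at an unadjusted p under 0.05, as were 1742 of all 14030 genes. The 5 genes of the hepcidin axis did not pass the filter in culture.

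The 3 called genes with the smallest p in WT were all of the iron-sulphur list. Isca1, a cluster assembly factor, was at 36.4 and 37.6 CPM at R0D3 and at 72.0 and 87.9 CPM at R40D3 (log2 fold change 1.11, SE 0.13, adjusted p = 0.00175). Bola3, which helps to pass clusters to target proteins, was at 7.11 and 8.15 CPM and at 17.0 and 19.3 CPM (1.25, SE 0.18, adjusted p = 0.00394). Glrx5, a mitochondrial glutaredoxin that carries clusters, was at 25.05 and 27.1 CPM and at 44.6 and 58.0 CPM (0.97, SE 0.16, adjusted p = 0.00669). In all 3 genes both R40D3 libraries lay above both R0D3 libraries. The calls of Isca1 and Bola3 held on leaving out any 1 of the 4 libraries. That of Glrx5 was lost without R0D3 replicate 1 (0.92) or R40D3 replicate 2 (0.73). The number of called genes in the 7 lists, 10 in WT, fell when any 1 of the 4 libraries was left out. So did the number over all genes, 2370.

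In LysM-cKO the same rule named Isca1 (log2 fold change 0.85, SE 0.13, adjusted p = 0.00756), Bola3 (0.73, SE 0.18, adjusted p = 0.0408) and Cd163 (−1.05, SE 0.23, adjusted p = 0.0324). Cd163, the macrophage receptor for haemoglobin bound to haptoglobin, was at 89.6 and 70.6 CPM at R0D3 and at 48.4 and 29.0 CPM at R40D3. It also fell in WT (−0.86, SE 0.23, adjusted p = 0.0448), from 68.6 and 61.5 CPM to 38.9 and 32.7 CPM. None of these 3 LysM-cKO calls held without R0D3 replicate 1 (Isca1 0.76, Bola3 0.74, Cd163 −0.87) or without R40D3 replicate 2 (0.73, 0.49 and −0.77). Without R0D3 replicate 2 that of Isca1 remained and those of Bola3 (0.73) and Cd163 (−1.20) did not. The number of called genes in the 7 lists, 4 in LysM-cKO, rose without R40D3 replicate 1 and fell without any other of the 4 libraries. Over all genes the number, 1422, fell on leaving out any 1 of them. With the 4 libraries fitted alone, 1 gene of the lists and 532 of all genes were called. With library size alone as the scaling, 9 genes of the lists were called, and the number over all genes is not given here.

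The next comparison asked whether loss of Impdh2 in the myeloid lineage changes the iron genes at R40D3. No member was called (0 of 10), and neither was any of the other 45 iron genes (edgeR quasi-likelihood, background 0.0143% of all genes, 2 genes). At an unadjusted p under 0.05 there was 1 member, Steap4, against 7.47% of all genes, and DESeq2 called 0 members. WT cultures held Steap4 at 261 and 374 CPM against 94.7 and 194 for LysM-cKO. The LysM-cKO mean was 45.4% of the WT mean. Fitted, the log2 fold change was −1.14 (SE 0.29, adjusted p = 0.648). With the block it was −1.20, and the gene was called (adjusted p = 0.00818), as were 0.214% of all genes.

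Within replicate number 1 the log2 ratio of Steap4 was −1.46 and within number 2 it was −0.95. Without LysM-cKO replicate 1 the fitted value was −0.69, and without LysM-cKO replicate 2 it was −1.76. The 10 osteoclast markers moved the same way: all 10 were lower in LysM-cKO, 0 were called, and their median log2 fold change was −0.64, with sums of 26292 and 38759 CPM in WT and 13189 and 24833 in LysM-cKO. In the same libraries the 8 neutrophil markers were all lower (median −1.25), 5 of 6 stromal markers were lower (median −0.72) and 8 of 10 cell cycle markers were higher (median 0.76), with 0 called. The part of these differences in that of Steap4 was not tested.

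For the other members the R40D3 genotype intervals included 0. Slc11a2 had a log2 fold change of −0.26 (95% interval −0.52 to 0.01, adjusted p = 0.648 in edgeR), in the same direction as Steap4. Tfrc was at −0.32 (−0.82 to 0.18). Fth1 was at 0.17 (−0.32 to 0.65) and Hmox1 at 0.17 (−0.28 to 0.62). Ftl1, Slc40a1, Ncoa4, Slc11a1 and Steap3 were between −0.03 and 0.09. A miss at this number of libraries does not show equal levels, and these intervals give the sizes that remain possible.

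At R0D3 no member was called either (background 0.0143% of all genes, 2 genes), none had an unadjusted p under 0.05 (background 4.42%), and DESeq2 called 0 members. The log2 fold changes apart from Steap4 ran from −0.24 for Slc40a1 (95% interval −0.70 to 0.22) to 0.20 for Hmox1 (−0.25 to 0.65). Steap4 had 3 counts in the 2 LysM-cKO libraries and 7 in the 2 WT libraries, a ratio of 0.420 with an exact interval of 0.0702 to 1.84, so a genotype difference was not detectable at this depth. The cell cycle markers were higher in LysM-cKO at R0D3 (10 of 10, 0 called, median 0.90), with sums of 488 and 1010 CPM against 379 and 516 in WT. Their part in the iron gene values was not tested.

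Whether the genotype effect differed between R40D3 and R0D3 was tested by an interaction term. No member was called (0 of 10, as 0 of 14030 genes), none had an unadjusted p under 0.05 (background 1.77%), and DESeq2 called 0. The interaction was 0.05 for Steap4, with a 95% interval of −1.86 to 1.95 set by its few R0D3 counts. For Slc40a1, where the WT difference was called and that of LysM-cKO was not, it was 0.27 (−0.38 to 0.92). For Fth1 it was 0.27 (−0.42 to 0.96) and for Slc11a1 0.21 (−0.23 to 0.65). A difference between genotypes in the response of these 3 genes was therefore not shown.

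**Figure D4:**
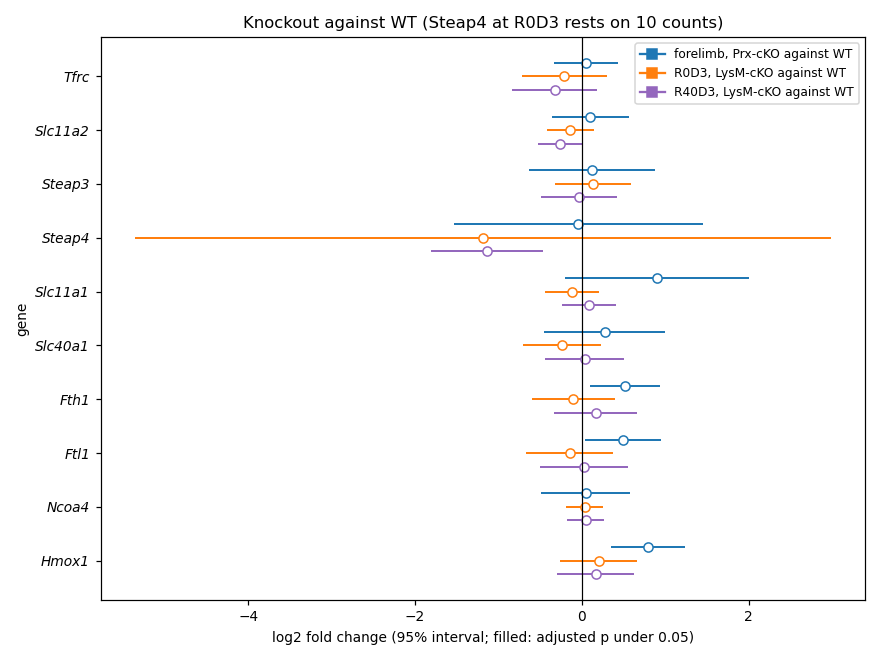
Log2 fold change of knockout against WT for the 10 genes (rows) in forelimb (blue), R0D3 cultures (orange) and R40D3 cultures (purple), with 95% intervals and open points where the adjusted p was not under 0.05. All points are open. Hmox1, Fth1 and Ftl1 lie above 0 with their intervals in forelimb, and Steap4 lies below 0 with its interval at R40D3.

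The last comparison asked what loss of Impdh2 in limb mesenchyme does to the same genes in the forelimb. The storage and haem genes Fth1, Ftl1 and Hmox1 were higher in both Prx-cKO libraries, but no gene passed the adjusted threshold. No member was called (0 of 10, as 0 of 19987 genes), while 3 of 10 had an unadjusted p under 0.05, all higher, against 5.87% of all genes higher and 10.5% in either direction. The groups did not overlap for 4 of 10, again all higher, against 22.2% higher and 43.2% in either direction. In all, 9 of 10 had a positive log2 fold change, with a median of 0.20 beside −0.03 over all genes. The exception was Steap4, at −0.04, a sign that turned with DESeq2 (0.05). DESeq2 called 390 genes (1.95%) and 1 member, Hmox1.

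WT forelimbs held Hmox1 at 18.0 and 19.3 CPM against 33.2 and 31.5 for Prx-cKO, a log2 fold change of 0.79 (SE 0.17, adjusted p = 0.392 in edgeR). In DESeq2 it was 0.78, with an adjusted p of 0.0216. The replicates lay close together and the genotypes apart, with 174% of the WT mean. Fth1 had 510.5 and 446 CPM in WT against 669 and 698 for Prx-cKO (0.51, SE 0.16, adjusted p = 0.444). Ftl1 had 586 and 696 CPM in WT against 857 and 944 for Prx-cKO (0.49, SE 0.18, adjusted p = 0.468). Both ferritin chains were thus higher in each knockout library than in each WT library.

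The share of Ftl1 family counts on its near-identical copies was uneven in forelimb, at 13.7% and 1.03% in WT replicates 1 and 2 and at 5.49% and 1.52% in Prx-cKO. With the copies added, the log2 fold change of Ftl1 was 0.43. Slc11a1 had 0.992 and 0.836 CPM in WT against 2.02 and 1.43 for Prx-cKO (0.90, SE 0.43, adjusted p = 0.534), from 42 to 73 counts a library. It is low in this tissue, and its groups did not overlap.

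Macrophage genes moved in the same direction in the same libraries. Of the 10 markers 9 were higher in Prx-cKO and 5 of them had an unadjusted p under 0.05, none was called, and the median log2 fold change was 0.90. Their sums were 108 and 110 CPM in WT and 140 and 127 in Prx-cKO. Groups did not overlap for 7 of these 9. Mertk, the exception, was lower with an unadjusted p under 0.05. It had the highest mean of the markers, 58.7 CPM for WT against 29.7 for Prx-cKO. C1qb, a complement component of macrophages, followed with means of 8.83 and 25.9 CPM. Erythroid sums overlapped, at 5238 and 3851 CPM in WT and 4746 and 4064 in Prx-cKO. Endothelial markers were higher (6 of 6, 0 called, median 0.31), at 115 and 126 CPM in WT and 148 and 158 in Prx-cKO. Of these, 2 had an unadjusted p under 0.05 and 5 had groups that did not overlap. Cell cycle markers were higher in 8 of 10 (0 called, median 0.26), with 1 at an unadjusted p under 0.05 and 7 whose groups did not overlap. Limb mesenchyme markers were lower (6 of 8, 0 called, median −0.70), at 1749 and 2024 CPM in WT and 1214 and 1296 in Prx-cKO. Of these 6, 4 had an unadjusted p under 0.05 and 5 had groups that did not overlap. Over all genes, in either direction, 10.5% had an unadjusted p under 0.05 and 43.2% had groups that did not overlap. The part of these differences in those of Hmox1, Fth1, Ftl1 and Slc11a1 was not tested.

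For the remaining members in forelimb the log2 fold changes lay between −0.04 and 0.27 and all intervals included 0, which does not show equal levels. Tfrc had 116 and 103 CPM in WT against 114 and 111 for Prx-cKO (log2 fold change 0.05, 95% interval −0.32 to 0.42). Slc11a2 was at 45.9 and 44.3 CPM and at 43.0 and 53.8 (0.10, −0.35 to 0.56), and Slc40a1 at 6.54 and 6.03 and at 6.40 and 8.67 (0.27, −0.44 to 0.98). Their groups overlapped. Ncoa4 had 33.0 and 42.6 CPM in WT against 35.5 and 42.6 for Prx-cKO (0.05, −0.48 to 0.57). Steap3 was at 5.08 and 6.95 CPM and at 6.19 and 6.95 (0.12, −0.62 to 0.86). Steap4, with 22 to 52 counts a library, had 0.661 and 0.725 CPM in WT against 1.04 and 0.431 for Prx-cKO (−0.04, −1.52 to 1.44). The interval of Steap4 was the widest of the 10. Of 50 wider iron genes tested in forelimb, 30 were higher, 0 were called and 7 had an unadjusted p under 0.05, and DESeq2 called 1, Alad. Beside the 10.5% of all genes with an unadjusted p under 0.05 in either direction and the 1.95% that DESeq2 called, these shares were near the background. By direction, 6 of the 7 were higher and 1 lower, beside 5.87% of all genes higher at an unadjusted p under 0.05.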

How the data were processed

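The authors deposited raw read counts, with genes as Ensembl identifiers, in separate tables for forelimb (4 libraries) and cultures (8, in 1 table per replicate number). Per the submitters' processing notes the tools were FastQC 0.11.2, Trimmomatic 0.36, HISAT2 2.1.0 and DESeq2 1.12.4 and the build GRCm38. The counting tool, annotation and use of strand are not given in the sources used here. Reads of near-identical or overlapping genes may therefore be divided between them.

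Counts were tested as deposited with edgeR 4.0.16 (R 4.3.3): filterByExpr, TMM scaling, quasi-likelihood test (legacy = FALSE), two-sided, Benjamini-Hochberg adjustment over all genes of a fit, calls under 0.05. Forelimbs had a fit of their own, and the 8 cultures 1 common fit with 1 estimate of the spread. CPM use the scaled library sizes. SE is the absolute log2 fold change over the square root of F. Intervals are 95%. Levels per kb use the exonic length in GENCODE M21. Alternatives covered RLE and no scaling, no filter, legacy = TRUE, DESeq2 1.42.0, a replicate block, single libraries left out, only the libraries compared, and, chosen after seeing the data, near-identical copies added. The fits were also run on simulated counts, drawn independently for each library, with planted changes larger than most member differences. That run does not bear on smaller differences or on paired libraries.

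Same-numbered culture libraries deviated together in all 6 pairs of groups (r from 0.343 to 0.609 across 14030 genes), so the titles' numbers may mark pairs. The main fit does not use the numbers, and its p-values ignore any such pairing. The block was run as an alternative, and some calls differ between the fits. Replicates differed by more than counting noise in every group (chi-square over its degrees of freedom, 10.7 or more).

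The 10 genes and all lists were chosen with earlier results of these data known. The naming rule took all members and Impdh2, up to 4 called wider iron genes with the smallest p per comparison, and up to 2 markers per list with the highest mean CPM. Of the genes this rule picks, 1 is not reported here. Alas1 and Alad were named after their values were seen.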

Additional observations from a re-analysis of the deposited data

How the results depend on the processing

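Of the members' fold changes refitted under the alternatives, 662 kept their direction and their side of the threshold, 17 lost a call, 17 gained one and 43 changed sign. Steap4 kept its R40D3 calls in both genotypes in every alternative. DESeq2 called 390 genes and 1 member in forelimb, and 23 genes at R40D3 and 7 at R0D3 between genotypes. For R40D3 against R0D3 it added calls of Hmox1 and Ftl1 in WT and of Hmox1, Fth1 and Slc40a1 in LysM-cKO, all lower. No share of all genes is given beside these added calls. With the replicate block the counts were 3976 genes and 8 members (WT R40D3 against R0D3), 2983 and 5 (LysM-cKO), and 30 and 1 (R40D3, genotype). The block changed no other member's call. In forelimb, where same-numbered libraries deviated together less than in culture (r = 0.261), the block gave 0 calls. With only the 4 libraries compared, LysM-cKO R40D3 against R0D3 gave 532 genes and 1 member, and both genotype comparisons gave 0 genes. Library size alone gave 0 genes for genotype at R40D3. The cause of these shifts was not tested.

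Leaving out 1 library gave 0 to 605 genes in forelimb (605 without WT replicate 1, 104 without WT replicate 2), 689 to 1699 genes and 1 to 4 members for WT R40D3 against R0D3, 399 to 1317 genes and 1 to 2 members for LysM-cKO, and 0 genes for either genotype comparison. A lone library was assumed to vary like the other groups.

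Signs turned for values near 0. With library size alone forelimb Tfrc was −0.0500 and Ncoa4 −0.0540, and R40D3 genotype Steap3 0.00699. Forelimb Steap4 was 0.0656 with legacy = TRUE and 0.0539 with DESeq2, and the culture interaction of Steap4 −0.0100 with the block. With 1 library left out, forelimb log2 fold changes ran from −0.16 to 0.25 (Ncoa4), −0.0650 to 0.27 (Slc11a2), −0.11 to 0.38 (Steap3), −0.68 to 0.58 (Steap4) and −0.0290 to 0.10 (Tfrc). For R40D3 against R0D3, Steap3 ran from −0.16 to 0.0469 in WT and −0.47 to 0.0471 in LysM-cKO. For genotype at R0D3 the ranges were −0.30 to 0.0107 (Ftl1), −0.15 to 0.46 (Hmox1), −0.0550 to 0.12 (Ncoa4) and −0.14 to 0.34 (Steap3). At R40D3 they were −0.0497 to 0.11 (Ftl1), −0.0412 to 0.21 (Slc11a1), −0.16 to 0.27 (Slc40a1) and −0.26 to 0.18 (Steap3). For the interaction they were −0.28 to 0.32 (Hmox1), −0.0699 to 0.11 (Ncoa4), −0.24 to 0.0246 (Slc11a2), −0.38 to 0.11 (Steap3), −0.68 to 0.57 (Steap4) and −0.34 to 0.20 (Tfrc). With 2 libraries a group, differences of this size were not detectable.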
